A study of Homo sapiens with 6 samples.

Results

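The PYHIN family was followed in MV4;11 leukemia cells, with MNDA, IFI16, AIM2 and PYHIN1 as its 4 genes on the array. They were read by 9 of 49293 tested probe sets and made up 4 of 18239 tested genes. The family was chosen by the measured rise of MNDA, the largest of all genes at 6.01 on the log2 scale, ahead of GASK1B at 5.75. IFI16, AIM2 and PYHIN1 came in as its relatives and not for their own values. The values of MNDA are therefore a description with no test, and the other 3 genes carry the tests.

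Cells treated with 4 µM MI-389 were compared with cells given the solvent DMSO alone, on 3 Affymetrix arrays per group. MI-389 is a menin-MLL inhibitor, per the labels. Both groups held 0.25% DMSO, were kept for 6 days and had their medium changed on day 3. MV4;11 is an established human leukemia line with a rearranged MLL gene, and no other line was used. The labels call the arrays biological replicates without saying how cultures were separated, so the p-values reflect array-to-array spread that may be technical in part.

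PYHIN proteins pair a pyrin domain, a fold that binds other pyrin domains, with 1 or more HIN domains that bind DNA. IFI16 is known as a nuclear sensor of foreign DNA that signals with STING, and AIM2 as a cytosolic sensor that joins the adaptor ASC and caspase-1 into an inflammasome. MNDA, the myeloid cell nuclear differentiation antigen, is known as a nuclear protein of monocytes and granulocytes, and PYHIN1 is also called IFIX. The genes lie side by side on chromosome 1 and are known to respond to interferon. The arrays measured RNA, so neither the place of the proteins in the cell nor their binding of DNA was read.

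The promoter windows of the family are shown because they are the sequence in which the genes with opposite values can be set side by side. The windows come from RefSeq on GRCh38.p14 and run from 250 bases before to 50 bases after the gene start. All 4 genes matched, IFI16 with 2 windows for different starts. The MNDA window is chr1:158831101-158831400 on the plus strand, that of PYHIN1 chr1:158931302-158931601 on the plus strand, the second IFI16 window chr1:159009657-159009956 on the plus strand, and that of AIM2 chr1:159076717-159077016 on the minus strand. Capitals in PYHIN1 and IFI16 mark bases identical to MNDA in the best local alignment, capitals in MNDA mark bases identical in both of these alignments, and AIM2 is shown without capitals.
MNDA: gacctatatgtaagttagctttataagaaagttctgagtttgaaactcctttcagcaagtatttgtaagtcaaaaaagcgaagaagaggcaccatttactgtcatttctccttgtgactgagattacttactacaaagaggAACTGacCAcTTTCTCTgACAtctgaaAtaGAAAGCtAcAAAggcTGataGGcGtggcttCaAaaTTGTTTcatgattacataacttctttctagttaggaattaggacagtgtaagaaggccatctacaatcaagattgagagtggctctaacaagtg
PYHIN1: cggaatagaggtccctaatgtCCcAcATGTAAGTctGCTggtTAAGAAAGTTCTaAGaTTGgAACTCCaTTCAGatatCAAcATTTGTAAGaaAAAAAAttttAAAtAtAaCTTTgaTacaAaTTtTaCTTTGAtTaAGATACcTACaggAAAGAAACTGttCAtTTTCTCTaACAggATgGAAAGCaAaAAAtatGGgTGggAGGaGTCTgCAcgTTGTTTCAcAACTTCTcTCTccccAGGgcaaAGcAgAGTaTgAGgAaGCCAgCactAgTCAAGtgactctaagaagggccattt
IFI16, second window: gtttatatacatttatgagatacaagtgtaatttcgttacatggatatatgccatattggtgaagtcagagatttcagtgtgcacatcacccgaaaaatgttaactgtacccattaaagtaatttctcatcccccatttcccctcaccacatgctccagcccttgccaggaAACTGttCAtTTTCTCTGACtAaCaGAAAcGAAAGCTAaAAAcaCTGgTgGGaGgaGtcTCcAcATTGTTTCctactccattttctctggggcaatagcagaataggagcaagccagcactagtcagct
AIM2: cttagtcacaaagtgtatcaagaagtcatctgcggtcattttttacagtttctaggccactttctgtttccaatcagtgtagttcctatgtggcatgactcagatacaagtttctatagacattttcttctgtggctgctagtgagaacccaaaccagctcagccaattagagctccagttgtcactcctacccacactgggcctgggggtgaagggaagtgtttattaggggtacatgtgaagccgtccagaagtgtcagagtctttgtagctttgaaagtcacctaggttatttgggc

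The MNDA window aligned with that of PYHIN1 over 251 bases, from -248 to 27 relative to the MNDA gene start, with 179 identical bases (71.3%). Gaps are left out of the aligned bases and of the percentages, here and below. With the second IFI16 window it aligned over 71 bases, from -109 to -38, with 53 identical (74.6%). PYHIN1 and the second IFI16 window shared 103 of 123 aligned bases (83.7%). When the MNDA window was aligned with all 35115 other windows on both strands, PYHIN1 had the highest score at 50 and the second IFI16 window the next at 29. The highest score outside the family was 22 and the median 10. The first IFI16 window scored 15, equal to the 99th percentile, at rank 297, and AIM2 scored 13 at rank 1413. The windows most like that of MNDA were thus those of PYHIN1 and the second IFI16 start. IFI16 was lower with MI-389. PYHIN1 was not called, at the level of nonspecific control probe sets in both groups, where a small change is not detectable.

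**Figure D1:**
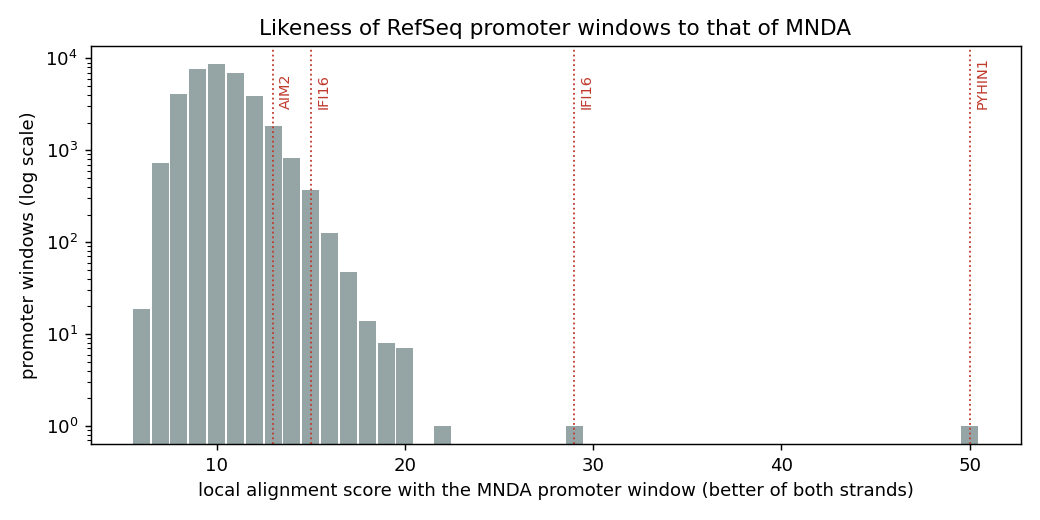
Local alignment score of the MNDA promoter window with every other RefSeq promoter window (horizontal axis) against the number of windows on a log scale (vertical axis); dotted lines mark the windows of the other family members. PYHIN1 at 50 and the second IFI16 window at 29 lie beyond the highest other score of 22, and AIM2 lies at 13.

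Known motifs were searched on both strands, with letters set after the windows had been seen. The core of the interferon-stimulated response element, GAAANNGAAA, occurred in MNDA from base -85 and in AIM2 on the opposite strand from base -190, and in 3.57% of 35116 windows. The gamma-activated site TTCNNNGAA occurred in none of the 5 family windows and in 7.66% of all windows. The PU.1 box GAGGAA, short and present in 27.85% of windows, occurred in MNDA from base -113 and in PYHIN1 from base 8. A C/EBP site, TTGCNNAA, occurred in MNDA on the opposite strand from base -200, and in 10.46% of windows. MNDA was the window among the 5 with 3 of the 4 motifs. No binding was measured, and a match of letters is a description of the window.

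The RNA of the 4 genes moved in different ways. MNDA had log2 levels of 9.70, 9.63 and 9.68 on the MI-389 arrays, against 3.60, 3.72 and 3.66 on the DMSO arrays. The groups lay far apart, with means of 9.67 ± 0.04 and 3.66 ± 0.06 (SD, n = 3 each). The DMSO level lay among the nonspecific control probe sets, which read 2.79 to 5.49 when that of the highest GC content, at up to 7.87, was left out. Set against 5.49 in place of the DMSO mean, the MI-389 level of MNDA was greater by at least 18.2-fold. MNDA had 1 probe set, 11729251_at, so no second reading of the gene could be set beside it.

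IFI16 went the other way. Its probe set 11716796_s_at, which represents the gene, read 6.90, 6.99 and 6.70 with MI-389, against 7.94, 7.88 and 7.97 with DMSO. The groups did not overlap, and every value lay above the nonspecific range. The log2 difference was -1.07 (SE 0.08, 95% interval -1.24 to -0.90), a 2.10-fold lower level (limma, adjusted p = 2.53e-06). IFI16 was thus the 1 gene of the other 3 that passed the test, lower with MI-389, where 15.7% of all genes were called lower. None of the 3 was called higher by limma, where 18.4% of all genes were. At an unadjusted p under 0.05 none was higher either, where 4126 of 18239 genes were.

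The other probe sets of IFI16 went the same way with unequal size. Probe set 11747926_s_at read 6.77, 7.03 and 6.65 with MI-389, against 7.76, 7.82 and 7.81 with DMSO. Its difference was -0.98 (SE 0.09, limma adjusted p = 1.84e-05), with the MI-389 values more widely spread than the DMSO values. Probe set 11716795_s_at was dimmer, at 5.31, 5.45 and 5.35 with MI-389, against 5.72, 5.60 and 5.81 with DMSO. Its difference was -0.34 (SE 0.07, adjusted p = 0.00527), and the MI-389 values lay inside the nonspecific range, where differences are compressed. Against a minimum fold of 1.2 (limma treat) this last probe set was not called, with an adjusted p of 0.941. All 3 carry the suffix _s_at, which marks probes that can match several transcripts, and whether they also read relatives of IFI16 was not checked. All 3 probe sets of IFI16 were called lower, out of 8 for the genes other than MNDA, where 14.0% of all probe sets were called lower and 14.0% higher.

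AIM2 and PYHIN1 stayed at the level of the nonspecific probes in both groups. AIM2 read 3.47, 3.36 and 3.68 with MI-389, against 3.33, 3.45 and 3.30 with DMSO, on probe set 11730458_at. The groups overlapped, and the difference was 0.14 (95% interval -0.04 to 0.33, limma adjusted p = 0.235). Its second probe set, 11730457_a_at, read 3.10, 3.11 and 3.11 with MI-389, against 3.08, 3.07 and 3.05 with DMSO. These groups did not overlap, but the difference was 0.04 (95% interval -0.08 to 0.16, adjusted p = 0.699).

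PYHIN1 read 4.82, 4.38 and 4.39 with MI-389, against 4.23, 4.42 and 4.37 with DMSO, on probe set 11761683_x_at. The groups overlapped, with 1 MI-389 array above all others. The difference was 0.19 (95% interval -0.07 to 0.44, limma adjusted p = 0.253), and without MI-389 replicate 1 it was 0.04 (adjusted p = 0.741). The other probe sets of PYHIN1 read between 3.15 and 3.38 on the MI-389 arrays and between 3.15 and 3.35 on the DMSO arrays, with differences of 0.06 and 0.005. Of the 5 probe sets of AIM2 and PYHIN1, 0 were called by limma, and 0 had an unadjusted p under 0.05. At these levels a small change of AIM2 or PYHIN1 RNA was not detectable, and the sign of both differences turned after centring each array on its spike-in controls, which are bacterial and phage transcripts added for hybridisation, to -0.11 for AIM2 and -0.07 for PYHIN1. With that centring the 2 probe sets representing the genes were not called, and the other 3 were called lower, namely 11730457_a_at of AIM2 at -0.22 (adjusted p = 0.0253) and 11735755_a_at and 11731290_a_at of PYHIN1 at -0.19 and -0.25 (adjusted p = 0.0344 and 0.0218). At gene level, 1397 of 18239 genes were then called higher and 11056 lower.

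**Figure D2:**
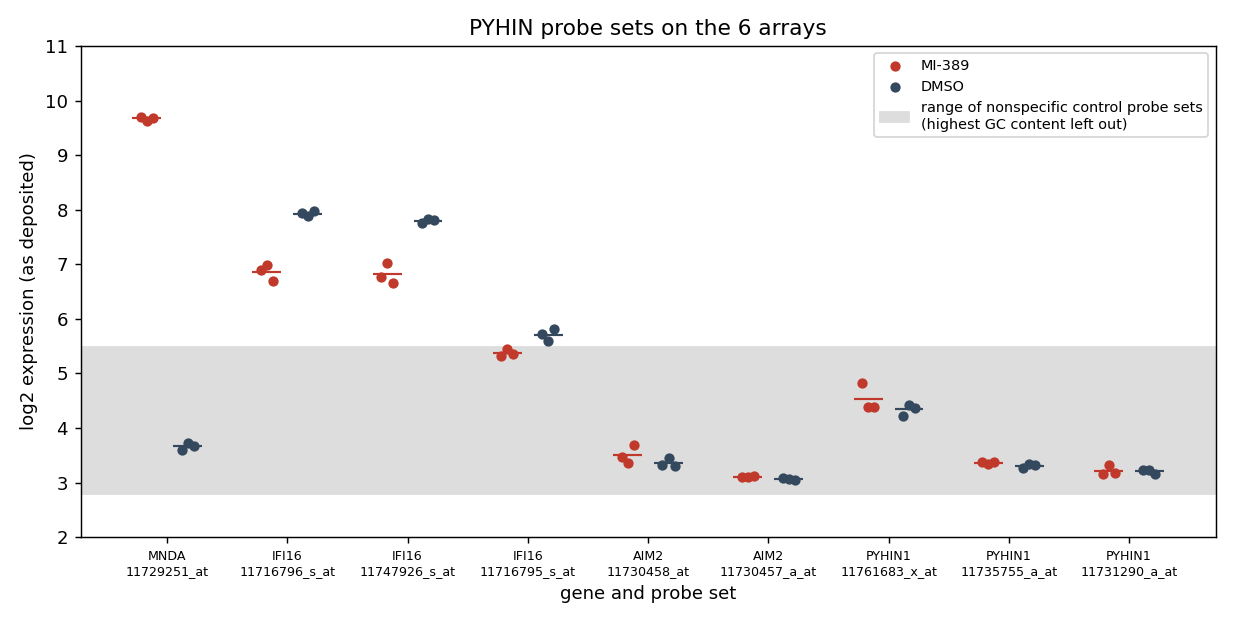
Log2 expression on each array (vertical axis) for the 9 probe sets of the family (horizontal axis); points are single arrays, short lines the group means of 3, and the grey band the nonspecific control probe sets from 2.79 to 5.49. MNDA stands at 9.63 to 9.70 with MI-389 and inside the band with DMSO, IFI16 is lower with MI-389 on each of its 3 probe sets, and AIM2 and PYHIN1 lie inside the band in both groups.

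Some controls of the arrays moved with the treatment. All 6 probe sets of ribosomal RNA were higher with MI-389, by 0.15 to 2.10. The 3-prime minus 5-prime level of the actin controls was 1.54, 1.48 and 1.91 with MI-389, against 1.39, 1.23 and 1.28 with DMSO. It was highest on MI-389 replicate 3, the array with the lowest IFI16. That of the GAPDH controls was 0.04, 0.05 and 0.01 with MI-389, against -0.12, -0.12 and -0.08 with DMSO. On MI-389 replicate 3 it was the lowest of the MI-389 group, unlike that of actin. Without MI-389 replicate 3 IFI16 differed by -0.99 and MNDA by 6.01. The 9 hybridisation spike-in probe sets were higher by 0.25 on average, and centring on them gave 5.76 for MNDA and -1.32 for IFI16, and moved the median of all genes to -0.23, against 0.02 as deposited. The part of these controls in the differences was not tested. In such bulk RNA, fewer cells that express a gene and less RNA per cell cannot be told apart.

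The genes on either side of the family on the chromosome were read next. RefSeq places the genes in the order MNDA, PYHIN1, IFI16 and AIM2, with PYDC5, not analysed here, between PYHIN1 and IFI16. Of the 10 protein-coding genes on each side, 18 of 20 were measured, and 2 were called higher and 0 lower by limma, with 4 and 0 at an unadjusted p under 0.05. Over all genes 18.4% were called higher, and 4126 of 18239 were higher at an unadjusted p under 0.05. The median difference of the neighbours was 0.05, against 0.02 over all genes. The 2 called were FCER1A, the alpha chain of the high-affinity receptor for immunoglobulin E, at 0.31 (SE 0.09, adjusted p = 0.0241), and the olfactory receptor gene OR10X1 at 0.18 (SE 0.05, adjusted p = 0.0259), both in the nonspecific range. OR10X1 was -0.07 with spike-in centring. Of the 18 neighbours 17 did not exceed 5.49 in either group, so the exception, the phosphatase gene DUSP23 with means of 8.60 with MI-389 and 8.47 with DMSO, was the 1 neighbour that could be read well, and it differed by 0.13 (adjusted p = 0.113). With spike-in centring 0 neighbours were higher and 9 lower, where 1397 of all 18239 genes were higher and 11056 lower.

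**Figure D3:**
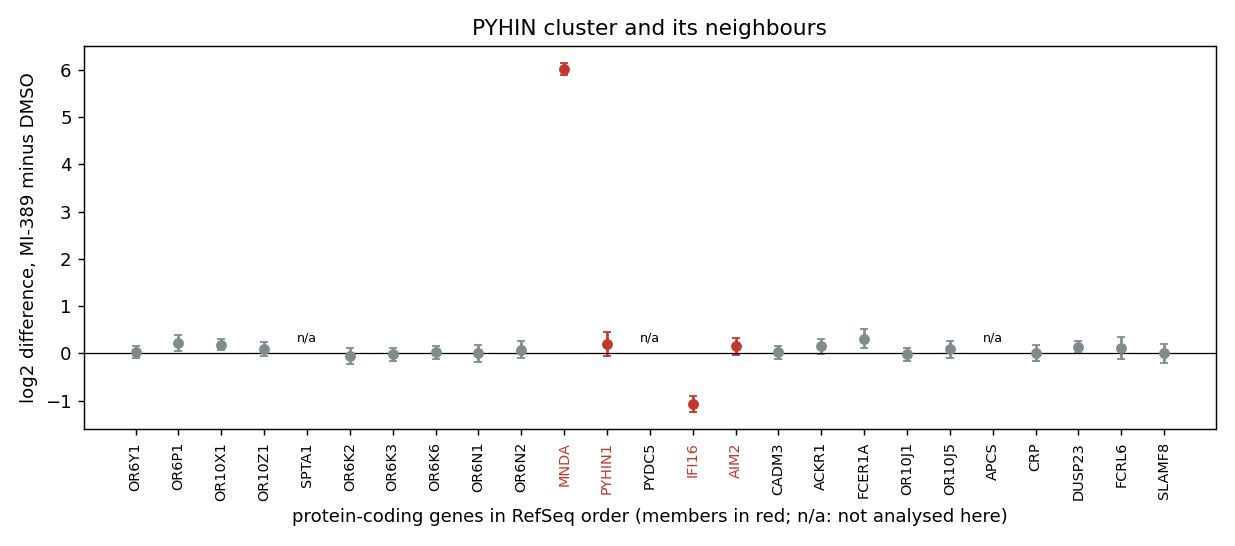
Log2 difference, MI-389 minus DMSO (vertical axis), for the protein-coding genes around the family in RefSeq order (horizontal axis); points are limma estimates from 3 arrays a group, bars 95% intervals, family members in red. MNDA, chosen for its rise, is at 6.01, IFI16 at -1.07, and the neighbours lie between -0.05 and 0.31, 17 of 18 of them in the nonspecific range in both groups.

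The likeness of other genes to each member was measured as the root mean square distance over the 6 arrays, after each gene's mean was subtracted. The 6 arrays fall into the 2 groups, so the distance mostly reads the size of the difference. Nearest to MNDA were GASK1B at 0.15, the alarmin gene S100A9 at 0.27 and its partner S100A8 at 0.32, each dim with DMSO and bright with MI-389. Nearest to IFI16 were FBXL20, an F-box protein gene, at 0.03, the transcription factor gene FOXJ3 at 0.04 and the seryl-tRNA synthetase gene SARS1 at 0.04, and 60 genes lay within 0.1 of it. For AIM2 the nearest were PLAAT2, PLEKHA5 and ERCC6, with 1398 genes within 0.1, and for PYHIN1 they were HMOX1, UBE2NL and DOCK9, with 135. AIM2 and PYHIN1 have nearly flat profiles.

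The partners of AIM2 in the inflammasome were measured although AIM2 itself was in the nonspecific range. PYCARD, which encodes the adaptor ASC, read 11.14, 11.12 and 11.15 with MI-389, against 10.92, 10.93 and 10.93 with DMSO. The difference was small, at 0.21 (SE 0.05, limma adjusted p = 0.00829), and was -0.04 and not called with spike-in centring (adjusted p = 0.635). CASP1, caspase-1, read 10.02, 10.12 and 10.17 with MI-389, against 9.22, 9.26 and 9.06 with DMSO, and rose by 0.92 (SE 0.07, adjusted p = 3.71e-06). IL18, a cytokine that caspase-1 matures, read 6.59, 6.80 and 6.50 with MI-389, against 7.74, 7.42 and 7.44 with DMSO, a difference of -0.90 (SE 0.10, adjusted p = 6.88e-05). GSDMD, the pore protein of pyroptosis, differed by -0.36 (SE 0.07, adjusted p = 0.00298).

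Over all genes 18.4% rose and 15.7% fell by limma, with a median of 0.02. With spike-in centring 1397 of 18239 genes rose and 11056 fell. In the list of 25 inflammasome and pyroptosis genes, 8 rose and 6 fell, with a median of 0.0008 (5 and 14 with spike-in centring). Of the 25, 8 had both groups at or under 5.49, where groups here and below are placed by their means. In this list the order of size was as follows. The largest rises were those of NAIP, a sensor of bacterial proteins, at 3.53, CARD16, which resembles the front part of caspase-1, at 1.49, and CASP1. NAIP was at least 8.74-fold higher when set against 5.49. NAIP has near copies in the genome and CARD16 shares sequence with CASP1, so their probe sets are uncertain. The largest falls were those of P2RX7, a receptor for extracellular ATP, at -2.17 or at least 3.08-fold, IL18, and GSDME, another pore protein, at -0.81 with both groups under 5.49. Among 18 other genes of the pyrin domain, 2 rose and 3 fell (0 and 10 with spike-in centring), with a median of 0.04, and 14 had both groups at or under 5.49. The sensor NLRP1 rose by 0.45 along with PYCARD, and NLRP12 at -0.47, NLRP3 at -0.21 and PYDC1 at -0.16 fell.

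IFI16 is known to signal through STING, and the STING pathway was mixed. STING1, which encodes it, read 7.59, 7.70 and 7.40 with MI-389, against 7.98, 7.99 and 7.95 with DMSO. It was lower, by -0.41 (SE 0.08, limma adjusted p = 0.00184), with the lowest value on MI-389 replicate 3, as for IFI16. CGAS, the cytosolic sensor upstream of STING, differed by 0.15 (SE 0.08, adjusted p = 0.169), with overlapping groups. Of 36 genes of DNA sensing, 13 rose and 7 fell (4 and 17 with spike-in centring), with a median of 0.08, and 29 had both groups above 5.49. Among all genes 18.4% rose and 15.7% fell, with a median of 0.02. With spike-in centring 1397 of 18239 genes rose and 11056 fell. SAMHD1, which breaks down deoxynucleotides, rose by 1.04, TREX1, an exonuclease of cytosolic DNA, by 0.64 and the kinase gene IKBKE by 0.57. The interferon regulatory factor genes IRF7 at -1.01 and IRF3 at -0.67 fell, as did MRE11, a DNA repair nuclease, at -0.98.

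PYHIN genes are known interferon targets, so that response was set beside them. Of 33 interferon-stimulated genes 10 rose and 16 fell (5 and 19 with spike-in centring), with a median of -0.26, against 0.02 over all genes. Among all genes 18.4% rose and 15.7% fell, and with spike-in centring 1397 of 18239 rose and 11056 fell. IFITM1, which restricts virus entry, read 8.80, 8.64 and 8.40 with MI-389, against 11.37, 11.31 and 11.43 with DMSO, a difference of -2.76 (SE 0.09, limma adjusted p = 1.18e-08). The antiviral genes OAS2 at -1.53, at least 1.18-fold, and MX1 at -0.94, with both group means under 5.49, also fell. HERC5, a ligase of the ubiquitin-like ISG15, rose by 1.70, TRIM22 by 1.12 and GBP2 by 0.88. Both group means of HERC5 and of GBP2 lay under 5.49. MNDA and IFI16 thus lay on opposite sides of a list whose members went both ways, and 19 of the 33 had both groups at or under 5.49. Without dim genes 8 of the list were higher and 8 lower.

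Among 16 measured genes of interferon signalling 5 rose and 5 fell (3 and 7 with spike-in centring), with a median of 0.06. Among all genes 18.4% rose and 15.7% fell, with a median of 0.02. With spike-in centring 1397 of 18239 genes rose and 11056 fell. JAK2, a receptor-bound kinase, rose by 0.67, IRF8, a factor of monocyte development, by 0.63 and IFNGR1, a chain of the interferon gamma receptor, by 0.55. The feedback inhibitors USP18 at -1.64 and SOCS1 at -0.99 fell with both group means under 5.49. IRF9, part of the factor that binds the interferon-stimulated response element, fell by 0.81. IRF1, another factor of that response, differed by -0.62 (SE 0.05, adjusted p = 1.04e-05). The interferon genes IFNB1 and IFNG had differences of 0.003 and 0.14, not called and in the nonspecific range.

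MNDA is known as a marker of the myeloid line, and myeloid genes were read beside it. As deposited, 18.4% of all genes were called higher and 15.7% lower by limma, with a median difference of 0.02. At an unadjusted p under 0.05, 4126 of 18239 genes were higher and 3445 lower. Of 14 measured monocyte and macrophage markers 10 rose and 0 fell by limma, with 0 lower at an unadjusted p under 0.05, and the median was 0.63. With spike-in centring 8 rose and 2 fell, where 1397 of 18239 genes rose and 11056 fell. Their summed level on the log2 scale was 13.92 to 13.94 with MI-389, against 12.58 to 12.62 with DMSO. ITGAM, the integrin chain CD11b, rose by 2.79, at least 4.68-fold, lysozyme (LYZ) by 2.06 and the M-CSF receptor CSF1R by 1.65. Of 13 neutrophil and granulocyte markers 7 rose and 0 fell, also at an unadjusted p (5 and 1 with spike-in centring), with a median of 0.25 and summed levels of 13.09 to 13.21 with MI-389, against 11.52 to 11.57 with DMSO. PRTN3 and ELANE, proteases of the primary granules, rose by 2.31 and 1.96, and the chemokine receptor CXCR2 by 1.75. Both groups lay at or under 5.49 for 6 of the 14 monocyte and 8 of the 13 granulocyte markers. Of the factors of the myeloid line, CEBPA rose by 0.66 (SE 0.07, adjusted p = 4.13e-05), CEBPB differed by -0.27 (SE 0.07, adjusted p = 0.0174), and SPI1, which encodes PU.1, by -0.66 (SE 0.17, adjusted p = 0.0119) with both groups under 5.49. SPI1 read 4.02, 4.01 and 3.95 with MI-389, against 5.16, 4.46 and 4.36 with DMSO, so its size leans on DMSO replicate 1.

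Markers of other blood cells were read beside them. Of 7 measured B cell markers 0 rose by limma, also at an unadjusted p, and CD79A fell by 0.27 with both groups under 5.49 (0 rose and 5 fell with spike-in centring). Their summed level was 8.0 to 8.1 with MI-389, against 8.0 to 8.0 with DMSO. Of 11 T and NK cell markers 2 rose and 1 fell, namely NKG7, a granule protein, at 0.94, CD3D at 0.32 and the adhesion molecule NCAM1 at -0.67, and the defining T cell genes CD3D, CD3E and CD3G lay under 5.49. With spike-in centring 1 rose and 5 fell, and CD3D was not called (adjusted p = 0.54). Their summed level was 8.73 to 8.80 with MI-389, against 8.63 to 8.65 with DMSO. Of 7 measured erythroid and megakaryocyte markers all lay under 5.49, with KLF1 at 0.21 higher (-0.04 with spike-in centring) and GP9 at -0.31 and EPOR at -0.27 lower (0 rose and 5 fell with spike-in centring). Over all 18239 genes, 18.4% were called higher and 15.7% lower as deposited, and 1397 were higher and 11056 lower with spike-in centring. The summed level of the erythroid and megakaryocyte markers was 6.9 to 7.0 with MI-389, against 7.0 to 7.1 with DMSO. Of the defining monocyte markers, LYZ stood at 13.13 with MI-389 and 11.07 with DMSO, and CD14 at 4.30 with MI-389 and 3.59 with DMSO, in the nonspecific range. The part of these markers in the values of MNDA and IFI16 was not tested.

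Genes of proteins reported to bind MNDA or IFI16 were read as well. Of 10 measured partners 2 rose and 1 fell (1 and 5 with spike-in centring), with a median of 0.06. As deposited, 18.4% of all genes rose and 15.7% fell. NPM1, nucleophosmin, which is known to bind MNDA, read 12.57 with MI-389 and 12.74 with DMSO and fell by 0.17 (SE 0.05, limma adjusted p = 0.0375). Over the alternative settings the count of partners called lower ran from 0 to 5. It was 0 with a replicate block in the fit and at a threshold of 0.01. NCL, nucleolin, differed by 0.01 (adjusted p = 0.882) and YY1, a factor whose DNA binding MNDA is known to strengthen, by 0.13 (adjusted p = 0.117). The acetyltransferase gene KAT2B rose by 0.60 and the cell cycle factor gene E2F1 by 0.42. Over the 12 lists, the cluster neighbours included, 60 different genes rose and 41 fell, and with spike-in centring 32 rose and 98 fell. Over all 18239 genes 3352 rose and 2862 fell as deposited, and 1397 and 11056 with that centring.

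**Figure D4:**
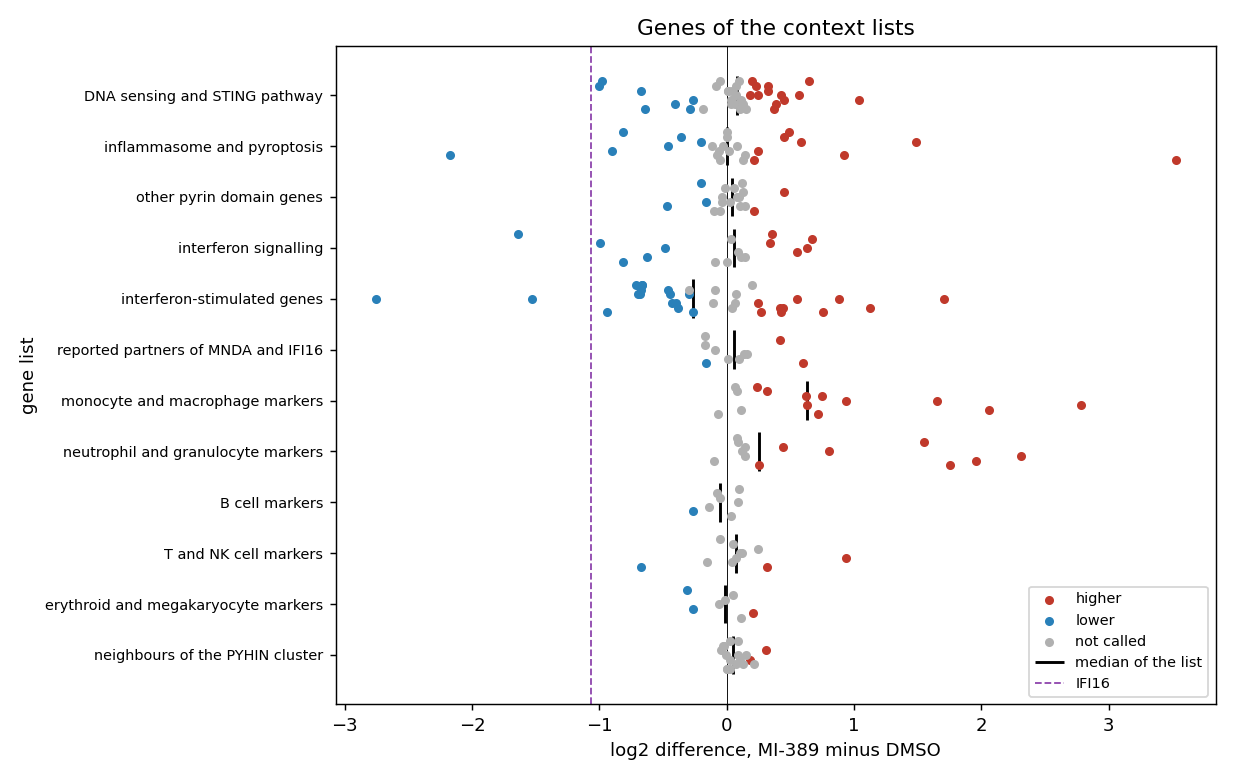
Log2 difference, MI-389 minus DMSO (horizontal axis), of the measured genes of each of the 12 lists (rows); red and blue points passed a limma adjusted p of 0.05, grey points did not, black bars are list medians and the dashed line is IFI16 at -1.07. Monocyte markers have a median of 0.63 and interferon-stimulated genes of -0.26, and the neighbours of the cluster gather near 0.05.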

How the data were processed

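RNA of 6 MV4;11 samples, 3 with MI-389 and 3 with DMSO, was read on Affymetrix arrays. The deposited values are log2 expression, 1 per probe set and array. RMA and limma are named in the submitters' processing notes without versions; which settings were used is not stated there. The array medians were 4.47 to 4.49. Arrays have no read depth; 3 per group bounds the precision.

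Gene names came from the platform annotation, updated through Entrez IDs in the RefSeq table of GRCh38.p14 (45172 of 45253 probe sets with 1 gene matched, 1327 had several genes and 2713 none). The 93 control probe sets stayed out of the tests. Each of 18239 genes was represented by its probe set with the highest mean. MI-389 minus DMSO was fitted across all genes, and across all probe sets, with limma 3.58.1 in R 4.3.3 (lmFit, eBayes, two-sided, Benjamini-Hochberg, threshold 0.05), and checked on simulated data. Control probe sets of nonspecific sequence served as a guide to background. Promoter windows from RefSeq were aligned with Biopython 1.88 (local, match 1, mismatch -1, gap opening -3, gap extension -1). Genes named are the members, 12 measured fixed genes, up to 3 rising and 3 falling genes with the largest differences in each list, the called neighbours and the 3 nearest genes of each member; GASK1B (as next largest rise), DUSP23, IFNB1, IFNG, CD14, NCL, YY1, CD3E and CD3G were added after their values were seen. The members and lists were chosen with earlier results of these data known. Some listed genes are not reported here. Alternatives were rescalings, spike-in centring, a filter on dim genes, a replicate block, other variance models, array weights, leaving out each array, other probe set choices, a threshold of 0.01 and a minimum fold of 1.2.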

Additional observations from a re-analysis of the deposited data

How the results depend on the processing

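IFI16 stayed lower and past the threshold under every alternative run for it. MNDA was higher throughout, but its rise chose the family, so its values here are a description and no check. With each array left out in turn, MNDA differed by 5.98 to 6.04 and IFI16 by -1.13 to -0.99. With the mean of all probe sets IFI16 differed by -0.79. Spike-in centring lowers every difference by 0.25. MNDA was 5.76, and 6 of 8 probe sets of the other members were lower, among them AIM2 probe set 11730457_a_at at -0.22 and the PYHIN1 probe sets 11735755_a_at at -0.19 and 11731290_a_at at -0.25, which turned sign. Under that centring 32 list genes were higher and 98 lower. Over all 18239 genes 12453 were then called, 1397 higher and 11056 lower, against 6214 called as deposited. With a minimum fold of 1.2, 32 list genes were higher and 23 lower, and 2457 genes were called. AIM2 and PYHIN1 had no value with dim genes left out, since both fell under that filter. The labels do not state whether the replicate numbers pair the arrays. Same-numbered deviations correlated at -0.20, 0.02 and -0.14, and only DMSO replicate 2 correlated best with its own number. With 3 arrays per group such correlations cannot decide the pairing. With the replicate block IFI16 kept -1.07 (limma adjusted p = 1.97e-05), and 5725 genes were called. Signal near background limits AIM2, PYHIN1 and most neighbours.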
